A study of Arabidopsis thaliana with 6 samples.

Results

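The sulfate transporters of the SULTR family were followed as 9 named genes, chosen by gene ID, out of the 29613 genes counted in roots of Arabidopsis thaliana. Sulfate transporters are membrane proteins that carry sulfate together with protons. Members of group 1 take sulfate up into the root or load it into the phloem, group 2 serves the vascular tissue on the way to the shoot, group 3 includes transporters of plastids and of other cell layers, and group 4 releases sulfate from the vacuole. In roots, several of these genes are known to be induced when sulfur is short, and a microRNA, miR395, is known to cut the transcript of a group 2 transporter and those of ATP sulfurylases, the enzymes that begin sulfate assimilation.

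The libraries were made from polyA RNA of whole roots, 3 from wild type Col-0 and 3 from plants labelled 35S:NPC48, in which the broadly active 35S promoter of cauliflower mosaic virus drives NPC48. The labels give no ecotype for the 35S:NPC48 plants, and they do not say whether the 3 libraries come from 1 transformed line or from several. All plants received no treatment, grew on a 10-fold diluted MS medium with 500 µM phosphate at 33% humidity, at day and night temperatures of 24 and 21 °C under 16 h light and 8 h dark, and were sampled at Boyes stage 1.0. The replicate numbers 1, 2 and 3 stand for the letters A, B and D in the titles, and nothing says that they are separate cultures. The p-values thus reflect how far these libraries spread, and that spread may be technical only. The name NPC48 matched no gene ID, so its own level was not analysed here.

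Total counts ran from 9479418 in 35S:NPC48 replicate 1 to 23830604 in wild type replicate 3, and 19608 genes passed the filter on low counts. All 9 root markers were detected in every library, with a summed level from 915 to 1289 CPM, the count scaled to the library size. The 10 shoot markers summed to 54.4 to 147 CPM, with LHCB2.1 at 0 in 35S:NPC48 replicate 3 and in wild type replicate 2. The libraries labelled replicate 2 stood apart in both genotypes. The 12 phosphate starvation genes summed to 5096 and 4595 CPM in the replicate 2 libraries of wild type and 35S:NPC48, against 484 to 719 CPM in the other 4 libraries, although the labels give the same phosphate supply to all 6. Markers of cell types also differed in replicate 2. Of the 8 shoot markers tested, 7 had values below replicate 1 and 8 below replicate 3, with median log2 differences of -0.84 and -0.88. Of them edgeR called 1 and 0 lower, beside 9.2% and 10.4% of all genes tested. The root hair marker COBL9 was higher than in replicates 1 and 3, with log2 differences of 0.89 and 0.87, and the endodermis gene SCR was lower, with -0.39 and -0.53, and edgeR called both in each comparison. Of the 9 root markers, edgeR called 1 higher and 2 lower in each comparison. Over all genes the shares were 10.8% and 9.2%, and 11.3% and 10.4%. Besides SCR, the lower ones were PHO1 against replicate 1, with -0.79, and CASP1 against replicate 3, with -0.60. CASP1, also an endodermis gene, was not called against replicate 1, with 0.08, nor PHO1 against replicate 3, with -0.23. Over the 9 root markers the medians were 0.00 and 0.16. These marker differences move with every replicate 2 result given here. Their part in those results was not tested and cannot be told apart from that of the replicate number. Root samples are mixtures of cell types, so fewer cells of a type and less RNA per cell cannot be told apart either.

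2 kinds of sequence are shown here, and their part in the values that follow was not tested. P1BS is the short palindrome GNATATNC bound by PHR1, a transcription factor of the phosphate starvation response. It was searched in the 250 bases before each gene's start, where the palindrome reads alike on both strands. Of the 9 transporter genes, 2 held a match, and 5.46% of 27443 promoter windows of that length did. The annotation marks the start of SULTR1;3 as incomplete, so the window searched for it may not be its promoter. The windows are read from RefSeq assembly TAIR10.1, 5′ to 3′ on the strand of the gene, with the match in capitals. They are shown because these 2 genes, SULTR1;2 at chr1:29327265-29327514 and SULTR2;1 at chr5:3192767-3193016, both on the plus strand, differed in opposite directions in replicate 2.
SULTR1;2 promoter: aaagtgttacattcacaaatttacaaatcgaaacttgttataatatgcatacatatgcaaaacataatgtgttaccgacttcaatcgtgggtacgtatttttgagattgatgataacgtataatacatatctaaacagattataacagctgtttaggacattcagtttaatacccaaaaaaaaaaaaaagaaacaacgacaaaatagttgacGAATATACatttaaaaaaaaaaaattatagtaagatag
SULTR2;1 promoter: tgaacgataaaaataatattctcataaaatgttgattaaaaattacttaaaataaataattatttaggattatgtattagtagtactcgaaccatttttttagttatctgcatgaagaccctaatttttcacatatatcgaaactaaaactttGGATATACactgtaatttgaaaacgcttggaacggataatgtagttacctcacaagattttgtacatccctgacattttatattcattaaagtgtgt

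In the 1000 bases before the start, the group 1 gene AT4G08620 also held a match, as did the family gene SULTR3;5 and the sulfolipid gene SQD2, and 20.3% of promoter windows of that length did. The letters GAGAC, the SURE core, were searched on either strand in the same windows. None of the 9 transporter genes held them within 250 bases, beside 25.8% of promoter windows. Within 1000 bases SULTR1;1, SULTR1;2, SULTR2;2, SULTR3;1 and SULTR4;2 did, beside 71.7%. A match says that these letters are present and nothing about binding.

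The second kind of sequence is miR395, shown because it separates 1 transporter from the other 8. The 6 annotated MIR395 loci give a pair of mature sequences of 21 bases, which share their seed. The seed, bases 2 to 8, is in capitals.
miR395a, d and e: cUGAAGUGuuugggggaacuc
miR395b, c and f: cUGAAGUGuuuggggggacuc
The best site of each transcript was found by counting mismatches over all 21 bases, and the bases of the site that pair with the microRNA are in capitals. SULTR2;1 has its site in the coding sequence at chr5:3193268-3193288 on the plus strand, with 3 mismatches.
SULTR2;1 site: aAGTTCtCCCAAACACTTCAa
APS1 site: GAGTTCCtCCAAACtCTTCAt
APS4 site: GAGTTCCtCCAAACACTTCAt
APS1 and APS4 encode ATP sulfurylases and had 3 and 2 mismatches, at chr3:8113164-8113184 on the plus strand and chr5:17591121-17591141 on the minus strand. In the other 8 transporter genes the best site had 6 to 9 mismatches. The 6 MIR395 loci had 0 counts in all 6 libraries, a polyA measurement of the primary transcripts that does not see the mature microRNA.

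Per length of exon, the transcripts of the 9 genes were dominated by SULTR1;2 (AT1G78000), the main high-affinity uptake transporter of the root. Its level was 111 ± 35.7 CPM per kilobase (SD over the 6 libraries). SULTR4;1 (AT5G13550), a vacuolar exporter, followed with 29.5 ± 1.75 CPM per kilobase. Outside the 9, the family genes MOT2 and SULTR3;5 stood at 33.2 ± 8.17 and 14.4 ± 6.14 CPM per kilobase. Next among the 9 came AT1G77990 of group 2 at 7.80 ± 4.38 and AT3G15990 of group 3 at 6.09 ± 3.87 CPM per kilobase, and their order turned with the replicate. In replicates 1 and 3 the former was at 8.35 to 13.4 and the latter at 3.37 to 3.76 CPM per kilobase. In replicate 2 the former was at 2.52 and 2.66 and the latter at 11.7 and 10.4. The phloem transporter AT1G22150 had a mean of 3.15 ± 5.14 CPM per kilobase that came almost wholly from replicate 2. The second vacuolar exporter, AT3G12520, stood at 2.88 ± 0.516 CPM per kilobase, below its partner by far more than the spread. The lowest levels per kilobase among the 9 were 1.38 ± 1.23 CPM for the uptake transporter AT4G08620, 0.634 ± 0.653 CPM for the group 2 gene AT5G10180 and 0.0982 ± 0.0757 CPM for the plastid transporter AT3G51895. The first of these was above the second within each of the 6 libraries, although their ranges overlapped.

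**Figure D1:**
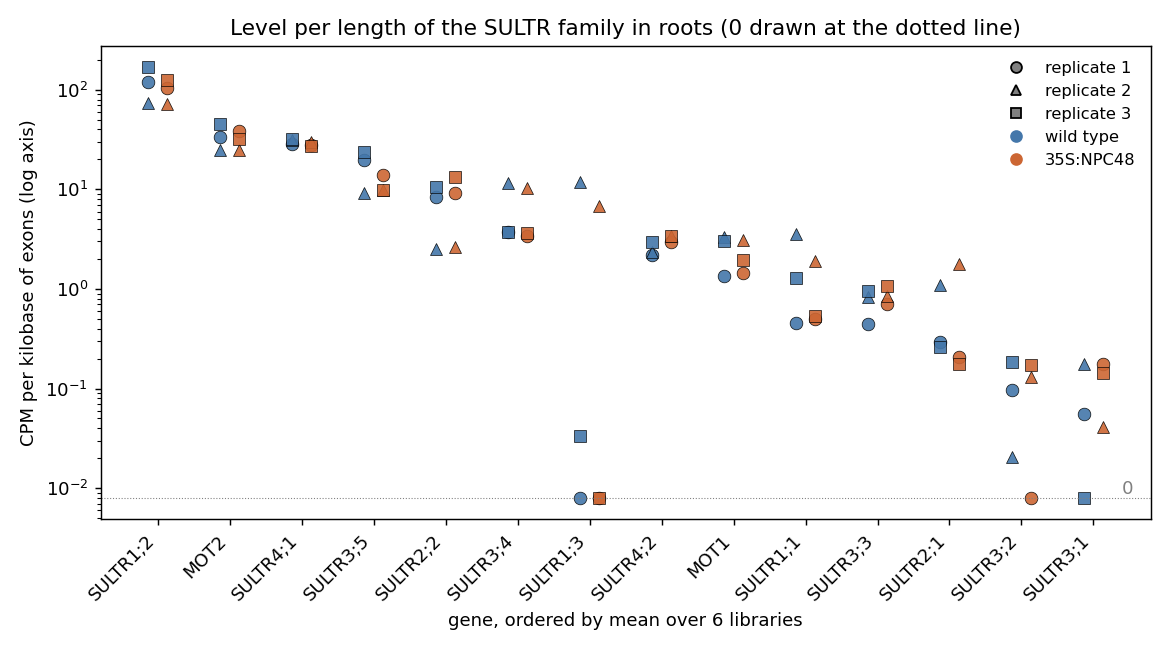
Level per length of 14 SULTR family genes, in CPM per kilobase of exons on a log axis, ordered by the mean over 6 libraries, with 1 symbol per library and values of 0 at the dotted line. SULTR1;2 is the highest at 111 CPM per kilobase, and SULTR1;3 lies at or near 0 in all libraries but the 2 of replicate 2.

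The make-up of the family also differed by replicate. SULTR1;2 held 73.3%, 53.3% and 76.8% of the summed level per length of the 9 genes across wild type replicates 1 to 3 and 70.2%, 56.1% and 71.9% across the 35S:NPC48 ones. Its share was lowest in replicate 2 in both genotypes. SULTR1;3 held 8.68% and 5.30% in the replicate 2 libraries and at most 0.0153% in the others. The share of SULTR3;4 was 8.47% and 8.05% in replicate 2, against 1.69% to 2.30% elsewhere. The summed level per length was 138 and 129 CPM per kilobase in replicate 2 and 149 to 219 in the other 4 libraries, so the sum was lowest where these 2 genes were highest.

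The study's comparison asks which transcripts differ between 35S:NPC48 and wild type roots. None of the 7 transporter genes that passed the filter was called in edgeR's quasi-likelihood test at a Benjamini-Hochberg adjusted p under 0.05, and 0 of the 7 had an unadjusted p under 0.05. Among all genes tested, 0.0102% were called, 2 of 19608, both lower, and 695 had an unadjusted p under 0.05. When the fit had the replicate number as a block, the background was 1.21% (0.841% higher and 0.367% lower) and again 0 of the 7 were called. With the block, 2 of the 7, SULTR1;1 and SULTR4;2, had an unadjusted p under 0.05, as had 2203 of all genes tested. Genotype differences given for single genes are without the block unless stated. DESeq2 and limma-voom also called 0 of the 7, and 157 and 0 of all genes tested. The median log2 fold change of the 7 was -0.10, beside 0.01 over all genes tested. A p that misses the threshold does not show that the genotypes are alike. Standard errors on the log2 scale ran from 0.12 to 0.95 without the block and from 0.09 to 0.37 with it. With the block, SULTR1;2 had a log2 fold change of -0.21 ± 0.11 (SE), SULTR3;4 had -0.12 ± 0.12 and SULTR4;1 had -0.10 ± 0.09. SULTR2;1 had 0.12 ± 0.37 with the block and 0.44 ± 0.95 without it. SULTR2;2 had 0.20 ± 0.12 with the block and 0.23 ± 0.65 without it.

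Vacuolar export held the gene with the least overlap between genotypes. SULTR4;2 releases stored sulfate from the vacuole and is known to be induced by sulfur deficiency. It stood at 5.39, 5.69 and 7.25 CPM across wild type replicates 1 to 3 and at 7.25, 8.23 and 8.41 CPM across the 35S:NPC48 ones. The 35S:NPC48 value was the higher in 3 of 3 replicates, by 1.35-fold, 1.45-fold and 1.16-fold, and the groups met at 7.25 CPM. The log2 fold change was 0.38 ± 0.20 (SE), with an unadjusted p of 0.0939 and an adjusted p of 1 in edgeR's quasi-likelihood test. With the replicate block it was 0.39 ± 0.16, with an unadjusted p of 0.0443 and an adjusted p of 0.43 in the same test. In 7.76% of all genes tested the genotypes did not overlap. One direction in all 3 replicates was common among the tested members. SULTR2;2 was also higher in 3 of 3, by 1.11-fold, 1.06-fold and 1.25-fold, and SULTR1;2, SULTR3;4 and SULTR4;1 were lower in 3 of 3. The share of all genes with such a pattern was not computed. SULTR4;2 overlaps AT3G12510, AT3G02535 and AT3G02545 on the annotation, and the strand setting of the counting is not given in the sources used here, so reads of these genes may be included.

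Its partner SULTR4;1 hardly varied. It was at 68.5, 74.6 and 76.4 CPM across the wild type libraries and 67.1, 71.2 and 66.0 CPM across the 35S:NPC48 ones, in replicate order. The genotypes overlapped, with a log2 fold change of -0.10 ± 0.12 (SE), and so did the replicate numbers. The replicate 2 against replicate 1 log2 difference was 0.11 ± 0.11 and that of replicate 2 against replicate 3 was 0.04 ± 0.11, with edgeR adjusted p of 0.543 and 0.847. These were the narrowest errors among the members. The longest stretch of identical bases shared by the vacuolar pair was 40 bases, so short reads could be split between them only over small parts of the transcripts.

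**Figure D2:**
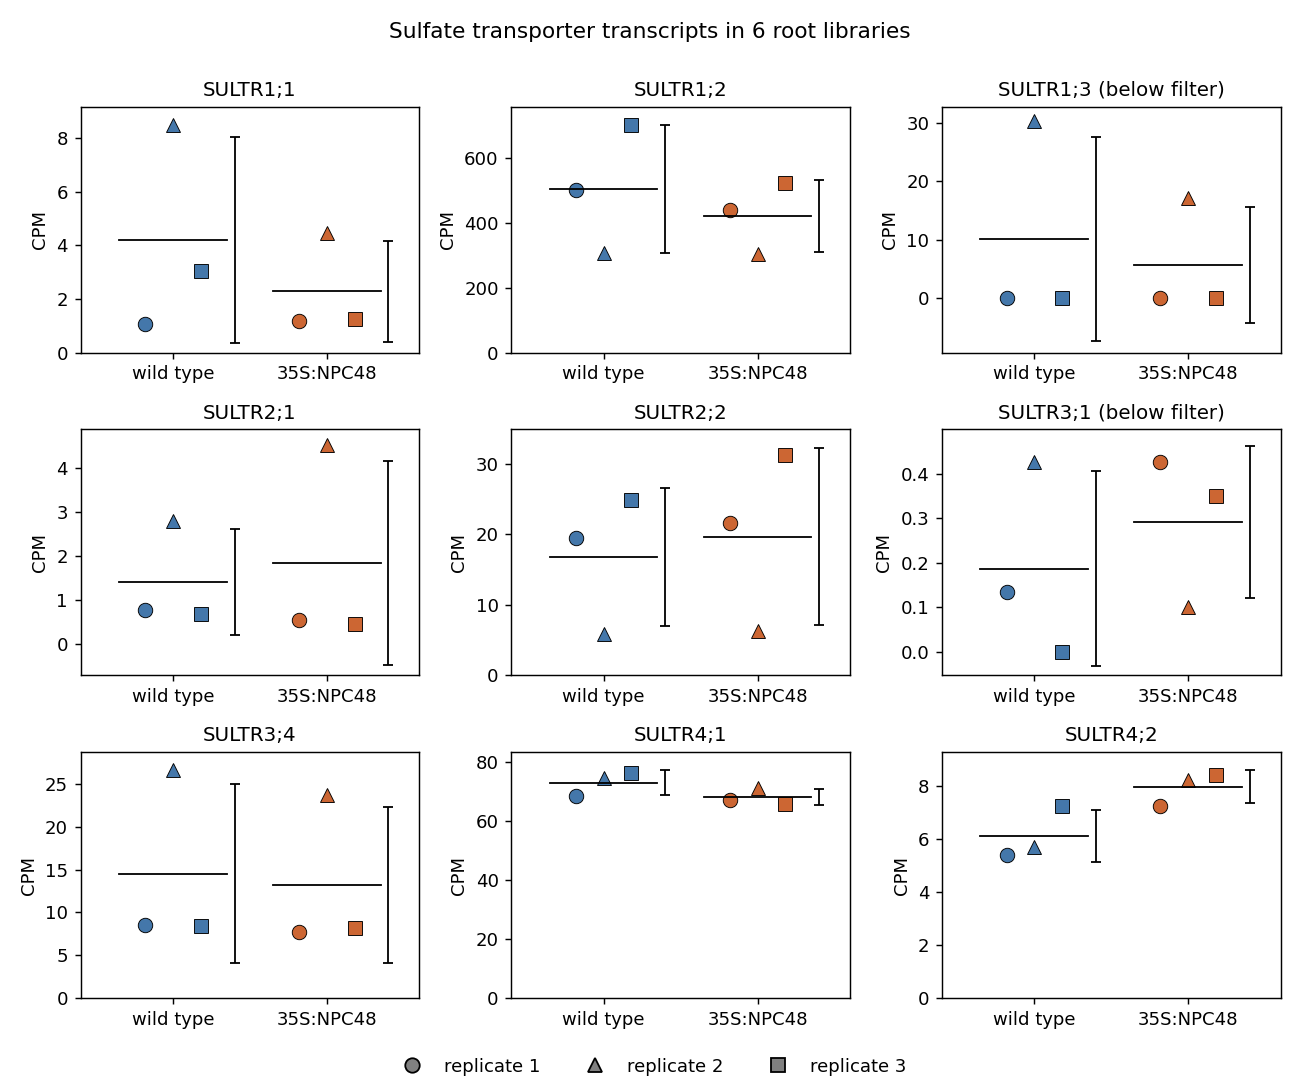
CPM of the 9 sulfate transporter genes in each library (circle, triangle and square for replicates 1, 2 and 3), with the group mean as a line and the SD over 3 libraries as a bar. The triangles of replicate 2 lie above the other symbols of both genotypes for SULTR1;1, SULTR1;3, SULTR2;1 and SULTR3;4 and below them for SULTR1;2 and SULTR2;2, patterns found in 21.5% and 21.1% of all genes tested.

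The replicate numbers separated these genes far more than the genotype did. Against replicate 1, and again against replicate 3, 3 of the 7 tested transporter genes were higher in replicate 2, 2 were lower and 2 were not called. These comparisons used genotype and replicate number as terms over all 6 libraries. Against replicate 1, replicate 2 had 10.8% of all tested genes higher and 9.2% lower, 19.9% in either direction. Against replicate 3 it had 11.3% higher and 10.4% lower, 21.7% in either direction. Between replicates 3 and 1 edgeR called 0 genes, that is 0% of 19608, with 2659 at an unadjusted p under 0.05 and 211 called by DESeq2, and 0 of the 7 transporter genes. The median log2 difference of the 7 was 0.14 against replicate 1 and 0.04 against replicate 3, beside 0.00 and -0.02 over all genes, as genes that rose and genes that fell offset each other. In 21.5% of all genes tested both replicate 2 libraries lay above the other 4, and in 21.1% both lay below, which holds for 3 and 2 of the 7 transporter genes. The 2 comparisons share the replicate 2 libraries and are not independent.

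Among the uptake transporters the pair moved in opposite directions. SULTR1;1 (AT4G08620, chromosome 4, 5500313 to 5506313) is the uptake transporter of roots that is most strongly induced by sulfur deficiency. It was at 1.07, 8.49 and 3.03 CPM across wild type replicates 1 to 3 and at 1.17, 4.47 and 1.25 CPM across the 35S:NPC48 ones. Both replicate 2 libraries were above the other 4. The log2 difference was 2.59 ± 0.37 (SE) to replicate 1 and 1.61 ± 0.32 to replicate 3, with edgeR adjusted p of 0.00322 and 0.012. The difference to replicate 1 stayed called without any single library but ranged from 1.83, without wild type replicate 1, to 3.05. The call against replicate 3 was lost, at similar differences, with 1.58 and an adjusted p of 0.0564 when genotype was not a term, 1.71 and 0.0663 without 35S:NPC48 replicate 2, and 1.5 and 0.0891 with wild type replicate 2 left out. Between genotypes the log2 fold change was -0.83 ± 0.80, with an edgeR adjusted p of 1, and it ranged from -1.79 to 0.20 when single libraries were left out. With the replicate block it was -0.84 ± 0.29, with an unadjusted p of 0.0205 and an adjusted p of 0.317 in edgeR's quasi-likelihood test.

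SULTR1;2 carries most of the sulfate uptake of the root, and it was lower in replicate 2. It stood at 502, 309 and 703 CPM across the wild type libraries and at 442, 304 and 523 CPM across the 35S:NPC48 ones, in replicate order. The 2 replicate 2 libraries were the lowest of the 6 and differed little from each other. The log2 difference was -0.62 ± 0.14 (SE) to replicate 1 and -0.99 ± 0.14 to replicate 3, with edgeR adjusted p of 0.0192 and 0.00318. The call against replicate 1 depended on single libraries, with an adjusted p of 0.0788 without wild type replicate 1, 0.339 without wild type replicate 2, 0.109 without 35S:NPC48 replicate 1 and 0.121 without 35S:NPC48 replicate 2, at differences from -0.76 to -0.48. That against replicate 3 was -0.85 with an adjusted p of 0.0503 without wild type replicate 2. The genotype log2 fold change was -0.25 ± 0.33.

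The phloem transporter showed the widest range. SULTR1;3 (AT1G22150, chromosome 1, 7817609 to 7821576) loads sulfate into the companion cells of the phloem. Its read counts were 0, 639 and 2 across wild type replicates 1 to 3 and 0, 343 and 0 across the 35S:NPC48 ones, which is 30.3 and 17.2 CPM in the replicate 2 libraries and 0.0842 CPM in wild type replicate 3. The gene was thus counted in replicate 2 of both genotypes and scarcely or not at all elsewhere. Summed over genotypes, the level in replicate 2 was at least 206-fold higher than in replicate 1 as an exact 95% limit on 982 against 0 counts. It was 254-fold higher if the 0 is set at 3 counts over the group, and 523-fold higher than in replicate 3 (95% counting interval 145 to 4328, from 982 against 2 counts). These limits cover counting error only.

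The gene did not pass the filter, which asked for about 10 counts in 3 libraries, so it is not among the 7. With no filter, edgeR's quasi-likelihood test gave an adjusted p of 2.39e-06 against replicate 1 and 1.79e-06 against replicate 3. A filter by replicate number, chosen after seeing the data, gave 8.55e-05 and 7.1e-05. A gene that passes such a filter through the group where it is high had to differ, so these p-values are given as a description. The difference between wild type and 35S:NPC48 within replicate 2 rests on 1 library each and was not tested.

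In the vascular group 2 the pair again went opposite ways. SULTR2;1 (AT5G10180) is a low-affinity transporter of xylem parenchyma and phloem and the transporter with the miR395 site printed above. It stood at 0.757, 2.80 and 0.674 CPM across the wild type libraries and at 0.533, 4.52 and 0.450 CPM across the 35S:NPC48 ones. Both replicate 2 libraries were above the other 4, at a low level throughout. The log2 difference was 2.39 ± 0.45 (SE) to replicate 1 and 2.65 ± 0.43 to replicate 3, with edgeR adjusted p of 0.01 and 0.00579. Without 35S:NPC48 replicate 2 the differences were 1.86 and 2.06, with adjusted p of 0.131 and 0.0949, and without wild type replicate 2 they were 3.10 and 3.29. The genotype log2 fold change of 0.44 ± 0.95 turned to -0.57 when replicate 2 was left out of both genotypes.

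SULTR2;2 (AT1G77990, chromosome 1, 29317767 to 29323352) is the other low-affinity vascular transporter. Its CPM was 19.5, 5.88 and 24.9 in wild type and 21.6, 6.22 and 31.2 in 35S:NPC48. The replicate 2 libraries were the lowest in both genotypes by a wide margin. The log2 difference was -1.76 ± 0.15 (SE) to replicate 1 and -2.20 ± 0.15 to replicate 3, with edgeR adjusted p of 0.00028 and 1e-04. Both calls held when any single library was left out, with differences from -1.84 to -1.68 and from -2.32 to -2.11. The gene lies next to SULTR1;2 on the opposite strand, and both were lower in replicate 2. Their starts are the neighbouring ends, and they are read away from each other. SULTR2;2 overlaps AT1G77992 on the other strand, so its counts may hold reads of that gene.

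**Figure D3:**
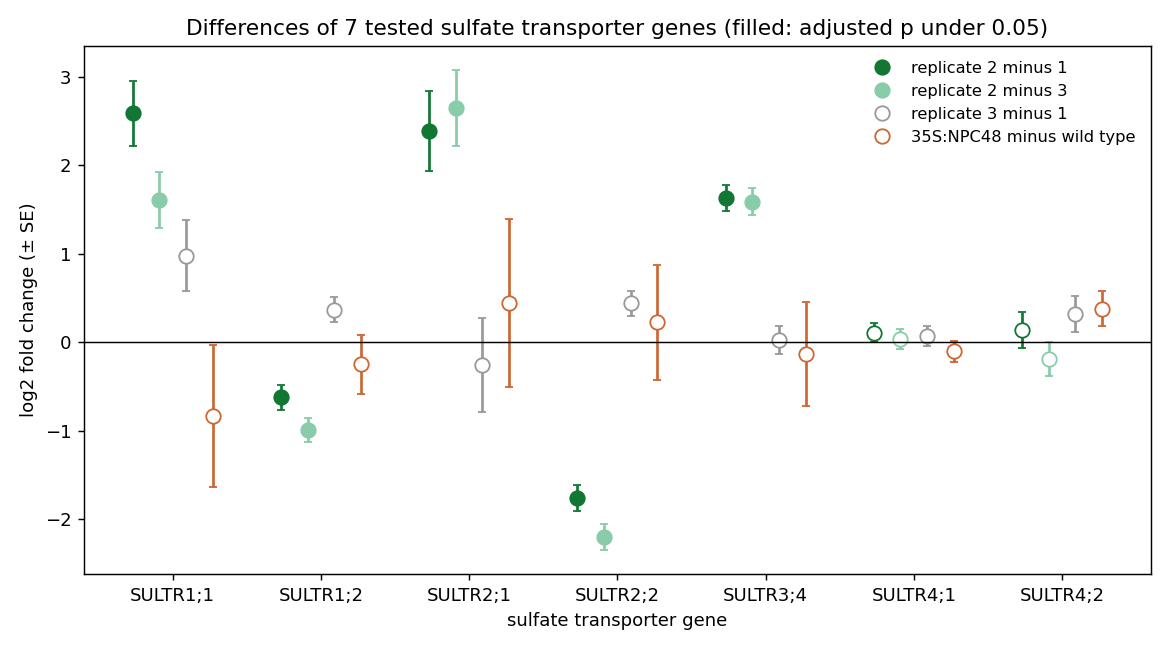
Log2 difference of the 7 tested sulfate transporter genes in 4 comparisons, with SE bars and filled points at an edgeR adjusted p under 0.05. In the replicate 2 comparisons SULTR2;2 reaches -1.76 and -2.20 and SULTR2;1 reaches 2.39 and 2.65, while no point of the genotype comparison or of replicate 3 against 1 is filled.

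Group 3 held the most even difference. SULTR3;4 (AT3G15990, chromosome 3, 5426987 to 5430897) is named as a sulfate transporter by its sequence, and its counterpart in rice is known to transport phosphate. It was at 8.55, 26.6 and 8.42 CPM across the wild type libraries and at 7.67, 23.7 and 8.21 CPM across the 35S:NPC48 ones. The 4 libraries of replicates 1 and 3 lay close together and both replicate 2 libraries stood about 3-fold above them, by 3.11-fold and 3.16-fold in wild type and 3.09-fold and 2.89-fold in 35S:NPC48. The log2 difference was 1.63 ± 0.15 (SE) to replicate 1 and 1.59 ± 0.15 to replicate 3, with edgeR adjusted p of 0.000432 and 0.000453, and both calls held without any single library. The genotype log2 fold change was -0.13 ± 0.59. An overlap of 140 bases with AT3G16000 on the other strand may add reads.

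The plastid transporter SULTR3;1 (AT3G51895) was barely detected. It had 3, 9 and 0 counts in wild type and 4, 2 and 7 counts in 35S:NPC48, and it did not pass the filter. No difference could be seen at this depth, since replicate 2 against replicate 1 gave a ratio of 1.22 with a 95% counting interval of 0.432 to 3.71.

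Across the 6 libraries, 5 members varied together in opposite directions, while the vacuolar gene AT3G12520 followed none of the tested members, with r from -0.25 to 0.22. On log2(CPM + 1), Pearson's r was 0.96 between SULTR2;1 and SULTR3;4, -0.97 between SULTR2;2 and SULTR3;4, and -0.96 between the group 2 pair. The weakest among the 5 was -0.60, between SULTR1;1 and SULTR1;2. The libraries share the split by replicate number, so these values over 6 points restate it. SULTR4;1, outside the 5, had an r of 0.77 with SULTR1;1 and from -0.44 to 0.47 with the rest of the 5. The genes outside the family most like SULTR3;4 in pattern were sought among 15509 genes averaging 5 CPM or more. They were NPC4, a phospholipase C, with r of 0.999, AT4G23000, a metallo-phosphoesterase, with 0.999, and UGP3, a pyrophosphorylase of sulfolipid synthesis, with 0.998. There were 1295 genes with r above 0.9 to SULTR3;4, which shows how common the pattern was. For SULTR2;2 the most alike was SK41, a shaggy-like kinase, with r of 0.997. For the vacuolar gene AT5G13550 the number above 0.9 was 76, and the most alike, AT4G14380, had an r of 0.992.

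The 5 other family genes summed to 77.1 to 153 CPM per library, beside 439 to 823 CPM for the 9. The molybdate transporter MOT1 was at 2.18, 5.31 and 4.80 CPM across the wild type libraries and 2.34, 4.92 and 3.10 CPM across the 35S:NPC48 ones, and of the 4 tested family genes outside the 9 it alone was called higher when replicate 2 was set against replicate 1 by edgeR, with a log2 difference of 1.21 ± 0.29 and an adjusted p of 0.0242, beside 10.8% of all genes. MOT2, a vacuolar molybdate exporter, was alone in being called lower against replicate 3, with -0.64 ± 0.17 and an edgeR adjusted p of 0.0352. Over all genes tested, 10.4% were called lower there. SULTR3;5, a partner of a group 2 transporter in the root vasculature, had a log2 difference of -0.78 ± 0.28 to replicate 1 and an edgeR adjusted p of 0.0871, and AT1G23090 of group 3 had 0.60 ± 0.34 and 0.249. These calls depended on single libraries. Without wild type replicate 2, 0 of the 4 were called in either comparison, and 0 were called higher than replicate 1 without wild type replicate 1 or without 35S:NPC48 replicate 2. DESeq2 called 3 of the 4 against replicate 1 and 2 against replicate 3, beside 3225 and 3422 of all 19608 genes tested. In the genotype comparison 0 of the 4 were called by edgeR, beside 0.0102% of all genes tested.

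Downstream of the transporters, sulfate assimilation differed in part. Of 22 genes, replicate 2 had 5 higher and 2 lower against replicate 1. Against replicate 3 it had 6 higher and 2 lower. Over all genes the shares were 10.8% and 9.2%, and 11.3% and 10.4%, so the lower calls were at the background. The 7 calls against replicate 1 became 13 without either replicate 3 library, and the 8 against replicate 3 became 4 without either replicate 2 library. APK2, an adenosine phosphosulfate kinase that supplies sulfated secondary compounds, was at 36.2, 131 and 61.9 CPM across the wild type libraries and 28.9, 130 and 36.5 CPM across the 35S:NPC48 ones. It rose in replicate 2 against replicate 1 by a log2 difference of 2.02 ± 0.18, with an edgeR adjusted p of 0.000326. APR1, an adenosine phosphosulfate reductase of the reductive branch, rose by 1.66 ± 0.14, with an edgeR adjusted p of 0.00027. The kinase gene APK4 fell, with a log2 difference of -1.87 ± 0.32 and an edgeR adjusted p of 0.00704. The list's median log2 difference was 0.24, beside 0.00 over all genes. Of the ATP sulfurylases with a miR395 site of at most 3 mismatches, APS1 was called higher than in replicate 1, with 0.72 ± 0.13 and an edgeR adjusted p of 0.00799. APS3 had 0.64 ± 0.22 with 0.0748 and APS4 had 0.05 ± 0.13 with 0.833, and neither was called.

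Of 16 genes known to respond to sulfur deficiency 8 were tested. Against replicate 1, 6 of the 8 were called higher, and against replicate 3, 4 of the 8 were, beside 10.8% and 11.3% of all genes, with 0 called lower. When genotype was not a term these counts were 4 and 3, beside 1596 and 1698 of all 19608 genes called higher. The LSU genes, small proteins named for their response to low sulfur, led the list. Against replicate 3 the called genes were LSU1 to LSU4 only. The other tested members there, SDI1, SDI2, SHM7 and SLIM1, had log2 differences of -0.38, 0.05, -0.01 and -0.33. Against replicate 1, SDI1 and SDI2 were called with 1.13 and 0.42, and SHM7 and SLIM1 were not, with 0.05 and -0.33. LSU1 was at 0.668, 25.0 and 2.19 CPM across the wild type libraries and 1.39, 30.8 and 2.85 CPM across the 35S:NPC48 ones. Its log2 difference was 4.88 ± 0.25 to replicate 1, with an edgeR adjusted p of 2.52e-05, and those of LSU2 and LSU4 were 3.46 ± 0.21 and 3.20 ± 0.18, with 6.01e-05 and 3.82e-05. SDI1, which is induced by sulfur deficiency and lowers glucosinolate synthesis, had a different order. It was at 1.78, 5.45 and 7.50 CPM across the wild type libraries and 4.26, 6.73 and 8.21 CPM across the 35S:NPC48 ones, highest in replicate 3 of both. The list's median log2 difference was 1.77 to replicate 1 and 0.68 to replicate 3.

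**Figure D4:**
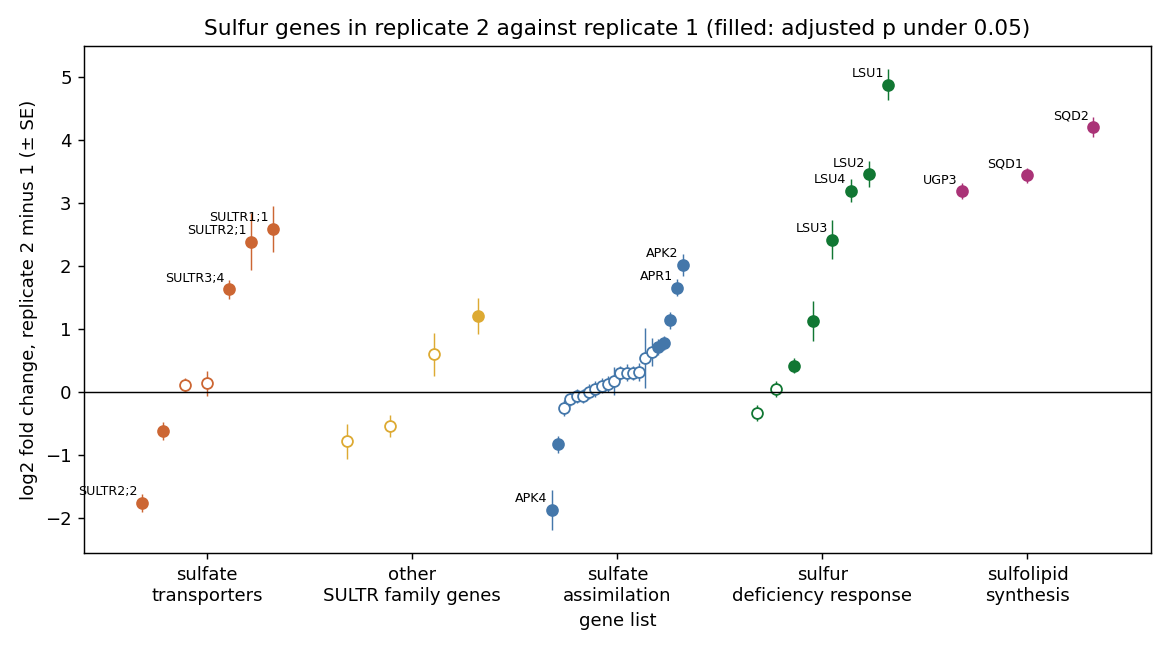
Log2 difference of replicate 2 against replicate 1, with SE bars, for the tested genes of 5 lists, filled at an edgeR adjusted p under 0.05. The 3 sulfolipid genes lie between 3.19 and 4.21, the sulfur deficiency list reaches 4.88, and the sulfate transporters spread from -1.76 to 2.59.

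Sulfolipid synthesis places sulfur in a plastid membrane lipid. Of its genes, 3 of 3 were called higher in replicate 2 in each comparison, beside 10.8% and 11.3% of all genes tested. SQD2, which completes the sulfolipid, was at 62.3, 1309 and 58.8 CPM across the wild type libraries and 66.3, 1077 and 59.7 CPM across the 35S:NPC48 ones. SQD1, which makes the sulfur-bearing sugar, was at 16.6, 168 and 16.9 CPM and at 15.2, 179 and 16.5 CPM. Both were far above the other libraries in replicate 2 of each genotype. The log2 differences to replicate 1 were 4.21 ± 0.16 for SQD2, 3.44 ± 0.12 for SQD1 and 3.19 ± 0.13 for UGP3, with edgeR adjusted p of 4.94e-06, 4.94e-06 and 6.37e-06. Of the 12 phosphate starvation genes 11 were tested and 10 were called higher in replicate 2 in each comparison, beside the same shares of all genes. PECP1, a phosphatase of lipid remodelling, had a log2 difference of 10.73 ± 0.55 to replicate 1, with an edgeR adjusted p of 2.71e-05. The non-coding RNA IPS1 had 10.29 ± 0.23 with 7.03e-07, and the phosphate sensor gene SPX1 had 7.17 ± 0.31 with 1.08e-05. Outside replicate 2, PECP1 had 0 to 13 counts per library and IPS1 had 3 to 13. Both thus passed the filter largely through replicate 2, so their p-values are given as a description. On such low counts the PECP1 rise over replicate 1 was uneven, 19056-fold (wild type) against 524-fold (35S:NPC48). In the genotype comparison 0 genes of any of these lists were called, beside 0.0102% of all genes tested.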

How the data were processed

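The deposited files hold whole-number read counts for each gene in 6 root libraries, which the authors left without normalization, as the values show. The tools named in the submitters' processing notes are STAR 2.5.2b, Trimmomatic 0.36, Subread 1.6.5 and featureCounts, and the build is TAIR10. How multi-mapping reads, strand and annotation release were set is not given in the sources used here, so reads of overlapping genes cannot be told apart. Every count column was matched to its sample.

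The counts were fitted with edgeR 4.0.16 under R 4.3.3 (TMM scaling, filterByExpr with a minimum count of 10 and a minimum total of 15, quasi-likelihood F test, Benjamini-Hochberg adjustment over all 19608 genes, calls at an adjusted p under 0.05). CPM uses TMM-scaled library sizes. The genotype model had genotype alone, and the replicate comparisons had genotype and replicate number. DESeq2 1.42.0 and limma 3.58.1 were run as alternatives. The fits were tested on simulated data with 200 changed genes. Of 29613 gene IDs, 28494 matched RefSeq assembly TAIR10.1, as did 9 of 9 transporter genes. Its nuclear chromosomes carry the same sequence versions as TAIR10, but its gene models, from which exon lengths, starts and sequences were taken, may differ from the authors'.

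The transporter genes, the gene lists, the choice of replicate comparisons and the rule for names were made with earlier results of these data known. The rule names all 9 members, the 3 genes of each list with the largest log2 difference between replicates 2 and 1, list members called between genotypes, and the genes most alike in pattern. Genes named beyond it were chosen after their values were seen. They are MOT2, SDI1, SDI2, SHM7, SLIM1, LSU3, GSH1, COBL9, SCR, PHO1, CASP1 and the ATP sulfurylases.

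Replicate numbers 1 to 3 occur in the labels of both genotypes. Deviations from the group means correlated across genes by 0.53, 0.83 and 0.37 for equal numbers, all above 0.1, and the numbers were therefore taken to pair the libraries. The main genotype fit did not use this pairing, and the fit with the replicate block did. Wild type replicate 1 with 35S:NPC48 replicate 3 gave 0.39 and wild type replicate 3 with 35S:NPC48 replicate 1 gave 0.34, so replicates 1 and 3 were hardly told apart. Within groups, libraries differed beyond sampling noise (chi-square over degrees of freedom of 16.5 to 99.6). Intervals and floors cover counting error only.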

Additional observations from a re-analysis of the deposited data

Results flagged for a closer look

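GSH1, which makes the precursor of glutathione, was at 341, 370 and 356 CPM across wild type replicates 1 to 3 and at 347, 323 and 341 CPM across the 35S:NPC48 ones. The replicate 2 library was the highest of the 3 in wild type and the lowest in 35S:NPC48. This difference between the genotypes rests on 1 library per cell of the design and was not tested.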

How the results depend on the processing

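The 0 calls among the 7 tested transporter genes between genotypes were the same under every alternative run. The number of all genes called, 2, was 157 with DESeq2, 0 with limma-voom, 237 with the replicate block, 174 with replicates 1 and 3 of 35S:NPC48 exchanged in that block, 46 without replicate 2 in both genotypes, and 0 to 2 when single libraries were left out. The block called 0 transporter genes. Without replicate 2 in both genotypes the genotype difference of SULTR2;1 turned to -0.57. With single libraries left out, genotype differences ranged from -1.79 to 0.20 for SULTR1;1, -0.51 to 0.06 for SULTR1;2, -1.53 to 1.41 for SULTR2;1, -0.29 to 0.65 for SULTR2;2 and -0.88 to 0.65 for SULTR3;4. In the replicate comparisons such a fit leaves 1 library in an arm and assumes that it varies like the others. Calls then ran from 1207 to 7967 genes (3 to 6 transporters) for replicate 2 against 1, 1115 to 6604 (3 to 6) against 3, and 0 to 2145 (0 to 2) for replicate 3 against 1, where DESeq2 called 211. The counts of 6 include SULTR1;3, which passes the filter in some of these fits through the replicate 2 libraries where it is high, and among the 7 genes 3 to 5 were called in both replicate 2 comparisons. Over the same fits, the sulfate assimilation list had 5 to 13 and 4 to 11 calls against replicates 1 and 3, the sulfur deficiency list 4 to 8 and 3 to 5, and the 4 other family genes 0 to 3 and 0 to 2. The difference of SULTR4;1 ran from -0.05 to 0.10 for replicate 2 against 3 and from -0.01 to 0.14 for replicate 3 against 1, where SULTR2;1 ran from -0.88 to 0.23 and SULTR3;4 from -0.03 to 0.10. The causes were not tested. Low counts limit SULTR3;1 and SULTR2;1 most.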
